A study of Drosophila melanogaster with 2 samples.

Results

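The 35 aminoacyl-tRNA synthetase genes of Drosophila melanogaster were examined for binding of Engrailed-GFP in whole embryos. They were taken by name: every protein-coding gene of the Ensembl BDGP6 annotation whose symbol is an amino acid code followed by RS, with or without the suffix -m, out of 13945 protein-coding genes. The suffix marks the enzyme that serves the mitochondrion, which 15 genes carry, and the other 20 are called cytoplasmic here. The binding data came from chromatin immunoprecipitation and sequencing (ChIP-seq) on mixed-sex embryos aged 0 to 16 h. The flies were of strain 3T-GFP, a transgenic line in which Engrailed, a homeodomain transcription factor, carries GFP at its C-terminus. There was 1 group with 2 replicates, labelled as biological replicates 1 and 3, and no other genotype, treatment or stage. The description names an anti-GFP antibody while the antibody label reads en, so whether the signal is of the tagged protein alone or of all Engrailed is not settled by the labels. What drives the transgene was not stated, and a whole embryo averages over cells with and without the tagged protein. Because no second group and no control library was analysed here, the values below are descriptions and carry no p-values.

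Signal values were available for 30000 regions in replicate 1, for as many in replicate 3 and for as many in the pooled data. A shorter list of 2226 peaks, which met the authors' criterion of irreproducible discovery rate (IDR), held exactly the pooled regions of highest signal, from 65.1 to 1022 with a median of 97.5. The signal is the authors' own value in a unit that was not stated, and the read depth behind it is unknown. Both replicates had a region at 2220 of the IDR peaks, and there the log2 ratio of replicate 3 to replicate 1 had a median of 0.60 and an SD of 0.52. Each gene was given a window that reached from 5000 bp before its start to 1000 bp beyond its end, and it was counted when the summit of a peak, its highest point, fell inside.

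Aminoacyl-tRNA synthetases join each amino acid to its tRNA and so supply the charged tRNAs from which ribosomes build protein, and each enzyme is named for the amino acid it charges. The cytosol and the mitochondrion translate separately. Most amino acids therefore have a pair of nuclear synthetase genes, while for some a single gene makes both enzymes. These genes are active in nearly every cell, and Engrailed is best known for quite another task, the repression and activation of patterning genes in the posterior part of each segment.

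The sequences under 5 Engrailed-GFP peaks in synthetase windows are shown first, 4 at promoters of cytoplasmic members and 1 in an intron near a mitochondrial member, since the comparison turns on them. The peak at the SerRS promoter is not shown, because its summit lies in the 5′ UTR. Each stretch is RefSeq release 6 sequence (build dm6) on the coding strand of the synthetase, from 5′ to 3′, reaching at most 149 bp to either side of the summit and stopping at annotated exons. Capitals mark a match on either strand to TATCGATA, the DNA replication-related element (DRE) common at promoters of housekeeping genes, or to GAGAG, a core of GAGA factor sites. The upstream stretches of ArgRS (chrX:15844146-15844439, minus strand), IleRS (chr3L:22288394-22288664, plus strand), ThrRS (chr2L:12103486-12103750, plus strand) and GluProRS (chr3R:23958429-23958650, minus strand) contain the summits next to their transcription start sites (TSSs). The last sequence, chr3L:4824749-4825047 on the plus strand, holds the peak in the window of LeuRS-m, the only one found for a mitochondrial member.
ArgRS: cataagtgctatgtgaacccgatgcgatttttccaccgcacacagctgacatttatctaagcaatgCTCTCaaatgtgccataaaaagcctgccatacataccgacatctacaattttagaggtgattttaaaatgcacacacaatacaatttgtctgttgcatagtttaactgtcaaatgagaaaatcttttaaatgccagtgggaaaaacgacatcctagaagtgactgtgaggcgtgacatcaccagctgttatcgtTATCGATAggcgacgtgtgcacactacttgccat
IleRS: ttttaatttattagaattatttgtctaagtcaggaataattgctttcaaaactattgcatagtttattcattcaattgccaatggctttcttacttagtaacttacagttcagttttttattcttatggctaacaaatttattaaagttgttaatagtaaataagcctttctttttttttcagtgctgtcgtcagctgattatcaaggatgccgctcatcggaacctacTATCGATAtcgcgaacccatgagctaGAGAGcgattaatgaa
ThrRS: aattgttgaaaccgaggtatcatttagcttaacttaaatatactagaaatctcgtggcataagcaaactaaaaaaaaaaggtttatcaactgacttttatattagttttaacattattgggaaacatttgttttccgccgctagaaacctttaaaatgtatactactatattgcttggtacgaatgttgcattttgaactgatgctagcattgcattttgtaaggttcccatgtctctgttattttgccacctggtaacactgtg
GluProRS: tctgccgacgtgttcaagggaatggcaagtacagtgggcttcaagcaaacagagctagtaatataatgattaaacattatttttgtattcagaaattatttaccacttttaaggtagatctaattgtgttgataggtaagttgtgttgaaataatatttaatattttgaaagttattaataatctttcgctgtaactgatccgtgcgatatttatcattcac
LeuRS-m: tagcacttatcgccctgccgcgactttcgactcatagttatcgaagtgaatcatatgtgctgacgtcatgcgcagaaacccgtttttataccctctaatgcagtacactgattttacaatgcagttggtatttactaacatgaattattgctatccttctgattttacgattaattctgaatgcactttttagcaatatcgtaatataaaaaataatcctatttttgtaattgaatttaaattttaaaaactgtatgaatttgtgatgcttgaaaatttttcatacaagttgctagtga

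The stretches of ArgRS and IleRS each held 1 DRE and 1 GAGAG match, and those of ThrRS, GluProRS and LeuRS-m held none. Over the 301 bp centred on the summit, the G+C content was 40.9% for ArgRS and between 32.2% and 34.6% for the other 4, beside a median of 37.9% with an SD of 5.2 over all IDR peaks. Within 150 bp of the summit, the DRE occurred at 2 of the 12 peaks in synthetase windows, beside 4.27% of all 2226 IDR peaks and 8.11% of the 1098 IDR peaks within 500 bp of a TSS. GAGAG occurred at 3 of the 12, beside 38.9% of all IDR peaks. The homeodomain core TAATTA, a sequence that Engrailed and many related factors bind, occurred at 1 of the 12, an upstream peak of SerRS, beside 19.2% of all IDR peaks. The E-box CACGTG, found at 4.40% of IDR peaks, and the ATF4 element TGATGNAA, found at 3.32%, occurred at none of the 12. Both strands were searched, and none of the 5 motifs contains another. A match is a description of the letters and does not show a bound site.

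Cytoplasmic and mitochondrial synthetase genes differed in how many had a peak. An IDR summit lay in the window of 9 of 20 cytoplasmic members (45.0%, exact 95% interval 23.1 to 68.5) and of 1 of 15 mitochondrial members (6.67%, 0.169 to 31.9). Over all 35 members the count was 10 (28.6%, 14.6 to 46.3), and over all protein-coding genes it was 23.1%. The cytoplasmic share therefore lay above that of all protein-coding genes and the mitochondrial share below it, and the share over the whole family was near it. The intervals are Clopper-Pearson intervals that cover counting error only. Those of the cytoplasmic and mitochondrial members overlap, and the difference between them was not tested, since genes are not replicates. The cytoplasmic interval begins at the share of all protein-coding genes, 23.1%, and the mitochondrial interval contains it. The windows were alike in length, with a median of 8652 bp for cytoplasmic and 8727 bp for mitochondrial members. Of the 6995 protein-coding genes whose windows fell in the members' range of 7595 to 16949 bp, 24.1% had an IDR summit.

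The order was the same when only the promoter of the gene itself was counted. An IDR summit lay within 500 bp of an own TSS in 5 of 20 cytoplasmic members (25.0%, 8.66 to 49.1). It did so in 0 of 15 mitochondrial members, for which the upper limit of the interval is 21.8%, and in 9.68% of protein-coding genes. Both intervals contain the share of protein-coding genes. The 5 genes were SerRS, IleRS, ArgRS, GluProRS and ThrRS. When each summit was given only to the protein-coding gene with the nearest TSS, 4 cytoplasmic and 0 mitochondrial members kept one. The GluProRS summit passed to its neighbour. The share of protein-coding genes, 12.3%, lies inside the cytoplasmic interval of 5.73 to 43.7.

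**Figure D1:**
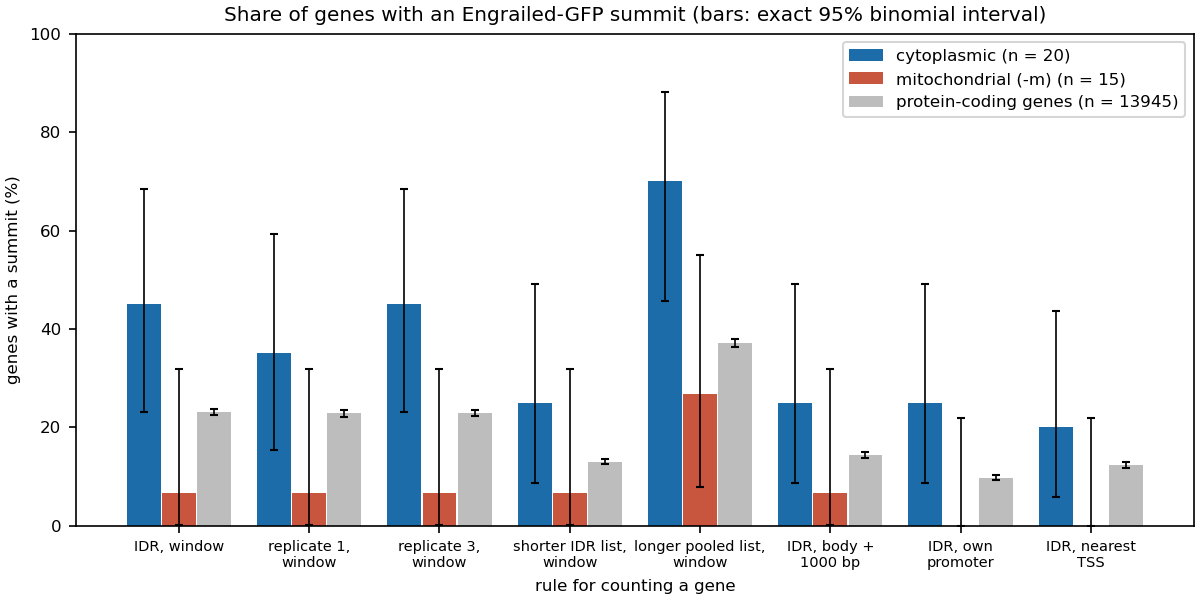
Percentage of genes with an Engrailed-GFP summit under 8 counting rules, for 20 cytoplasmic members, 15 mitochondrial members and 13945 protein-coding genes; the shorter IDR list holds the 1113 strongest IDR peaks, the longer pooled list the 4452 strongest pooled regions, and whiskers are exact 95% binomial intervals. The cytoplasmic bar is the highest and the mitochondrial bar the lowest under every rule shown, with 45.0%, 6.67% and 23.1% for IDR summits in the window.

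The strongest peak of the family was at SerRS (FBgn0031497, 2L:3035493-3037403, minus strand), which charges serine. The peak spanned 2L:3037175-3037570 with a pooled signal of 199, rank 250 of the 2226 IDR peaks. Its summit lay 30 bp inside the gene, in the 5′ UTR, and also within an intron of the oppositely transcribed CG17260. SerRS and CG17260 thus overlap, and the closest of their opposed start sites are 8 bp apart. The signal was 69.7 in replicate 1 (rank 361) and 128 in replicate 3 (rank 218), so the peak stood high in both. The highest signal in this window exceeded that of 96.5% of protein-coding genes. A pair of weaker peaks lay farther upstream, at 2538 bp and 4894 bp, with signals of 87.6 and 66.0. These were nearest to CG17221, at 35 bp, and CG17261, at 254 bp. The peak at 2538 bp measured 24.5 in replicate 1 and 60.2 in replicate 3. The peak at 4894 bp had a signal of 12.5 in replicate 1, where it ranked 12532, and 47.5 in replicate 3, where it ranked 1617. Its log2 ratio of 1.92 was 2.53 SD above the median of all IDR peaks, the most uneven of the 12 peaks.

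IleRS and ArgRS, which charge isoleucine and arginine, had peaks of intermediate signal just upstream. The IleRS peak (FBgn0027086, gene at 3L:22288665-22292810, plus strand) spanned 3L:22288345-22288740, with a pooled signal of 125 and its summit 122 bp upstream of the TSS. It measured 55.5 in replicate 1 (rank 591) and 68.6 in replicate 3 (rank 827). The ArgRS peak (FBgn0027093, gene at X:15841769-15844145, minus strand) spanned X:15844092-15844487, with a signal of 114 and its summit 145 bp upstream. It measured 48.9 in replicate 1 (rank 769) and 63.6 in replicate 3 (rank 953). Both peaks were thus within the 1000 strongest regions of each replicate, and in both genes the peak was the only pooled region of the window.

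ThrRS, for threonine, and GluProRS, a fused enzyme that charges glutamate and proline, completed the peaks at own promoters. The ThrRS peak (FBgn0027081, gene at 2L:12103751-12107170, plus strand) spanned 2L:12103437-12103832 and had a signal of 95.8, with its summit 116 bp upstream. Its replicate signals were nearly equal, 50.2 in replicate 1 (rank 728) and 52.8 in replicate 3 (rank 1341). The GluProRS peak (FBgn0005674, gene at 3R:23952136-23958391, minus strand) spanned 3R:23958380-23958775 with a signal of 110.0. Its summit was 187 bp upstream of GluProRS and 73 bp upstream of AP-1sigma, which encodes a clathrin adaptor subunit. This peak was uneven, at 25.5 in replicate 1 (rank 2748) and 80.5 in replicate 3 (rank 608), and its log2 ratio of 1.66 was 2.02 SD above the median of all IDR peaks.

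**Figure D2:**
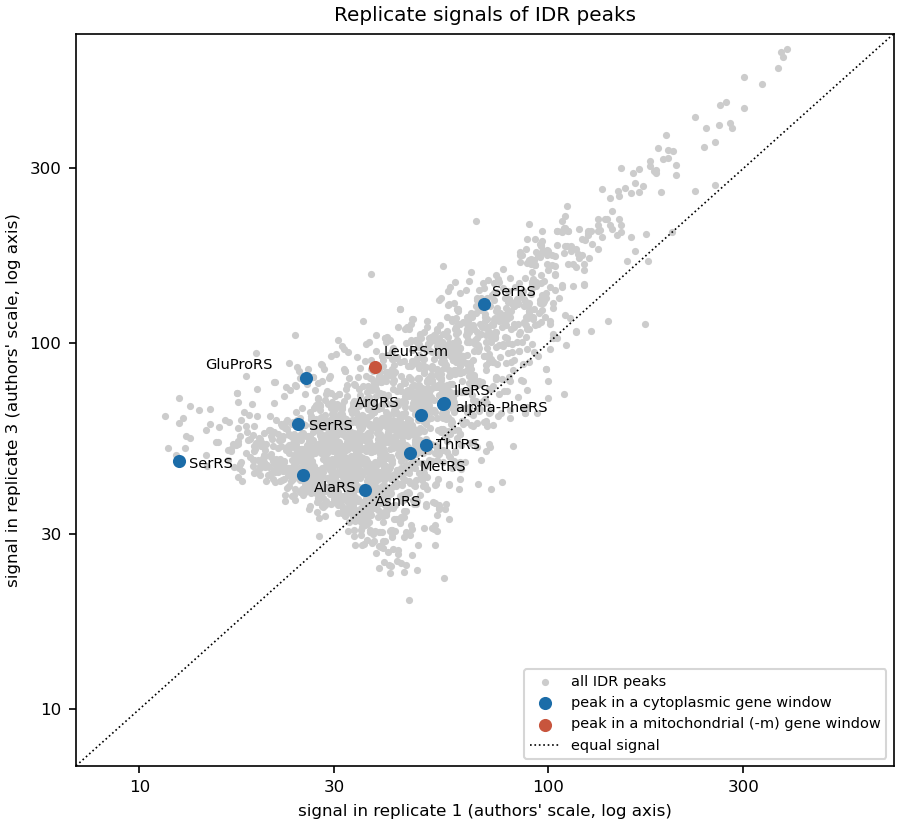
Signal of each IDR peak in replicate 1 against replicate 3, both on log axes in the authors' scale; grey points are all IDR peaks with a region in both, coloured points are the 12 peaks in synthetase windows, and the dotted line marks equal signal. All 12 lie above the line, from ThrRS at a log2 ratio of 0.07 to the SerRS peak with signals of 12.5 and 47.5. The median log2 ratio over all IDR peaks, 0.6, is above it too.

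All 5 genes with a peak at their own promoter have a start site head to head with that of a neighbour, which SerRS also overlaps. The smallest distance between opposed start sites is 8 bp for SerRS and CG17260, 260 bp for GluProRS and AP-1sigma, and 331 bp for ArgRS and CG8578. It is 466 bp for ThrRS and Patsas and 470 bp for IleRS and Hem, a gene of the actin-regulating SCAR complex. A divergent protein-coding TSS within 1000 bp was present at 17 of 20 cytoplasmic members (85.0%), 7 of 15 mitochondrial members (46.7%) and 36.2% of protein-coding genes. Protein-coding genes with such a neighbour had an IDR summit at their own promoter in 16.7% of cases, and those without in 5.67%. Within the divergent arrangement, 5 of 17 cytoplasmic and 0 of 7 mitochondrial members had one. The part of the arrangement in the difference between the compartments was not tested.

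The remaining 4 cytoplasmic members with an IDR summit had it at the start of another gene. In the window of alpha-PheRS (FBgn0030007, X:8143904-8145602, minus strand), a subunit of the phenylalanine enzyme, the peak lay beyond the 3′ end, in the 5′ UTR of CG17982 and 68 bp from its TSS (X:8143569-8143964, signal 125). It measured 55.2 in replicate 1 and 68.2 in replicate 3. The window of MetRS (FBgn0034401, 2R:18846858-18850599, minus strand) held a peak 4722 bp upstream, 234 bp from the juvenile hormone epoxide hydrolase gene Jheh1 (2R:18855123-18855518, signal 84.7), with 45.8 and 50.2 in replicates 1 and 3. For AsnRS (FBgn0086443, 2L:19129469-19131954, minus strand) the summit was 1626 bp upstream and 97 bp from Polr1D, which encodes an RNA polymerase subunit (2L:19133382-19133777, signal 70.5, replicates 35.6 and 39.8). For AlaRS (FBgn0027094, 2L:8378262-8381764, minus strand) it was 1095 bp upstream and 2 bp from the TSS of Rcd4 (2L:8382661-8383056, signal 68.0, replicates 25.2 and 43.5). These 4 genes count only through the reach of the window, and to which gene a peak belongs was not measured.

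LeuRS-m, the mitochondrial leucine enzyme (FBgn0027085, 3L:4825853-4829038, plus strand), was the only mitochondrial member with an IDR summit. The peak spanned 3L:4824700-4825095 with a signal of 122, rank 731. Its summit was 955 bp upstream of LeuRS-m, inside an intron of Dhc64C, the cytoplasmic dynein heavy chain gene, 789 bp from the Dhc64C TSS. It was the only 1 of the 12 peaks in synthetase windows that lay more than 500 bp from every annotated TSS. The signal was 37.7 in replicate 1 (rank 1295) and 86.3 in replicate 3 (rank 539). The start sites of these divergent neighbours are 166 bp apart, and the region at the LeuRS-m start itself, with a summit 38 bp inside the gene, had a signal of 45.4 and was outside the IDR list.

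**Figure D3:**
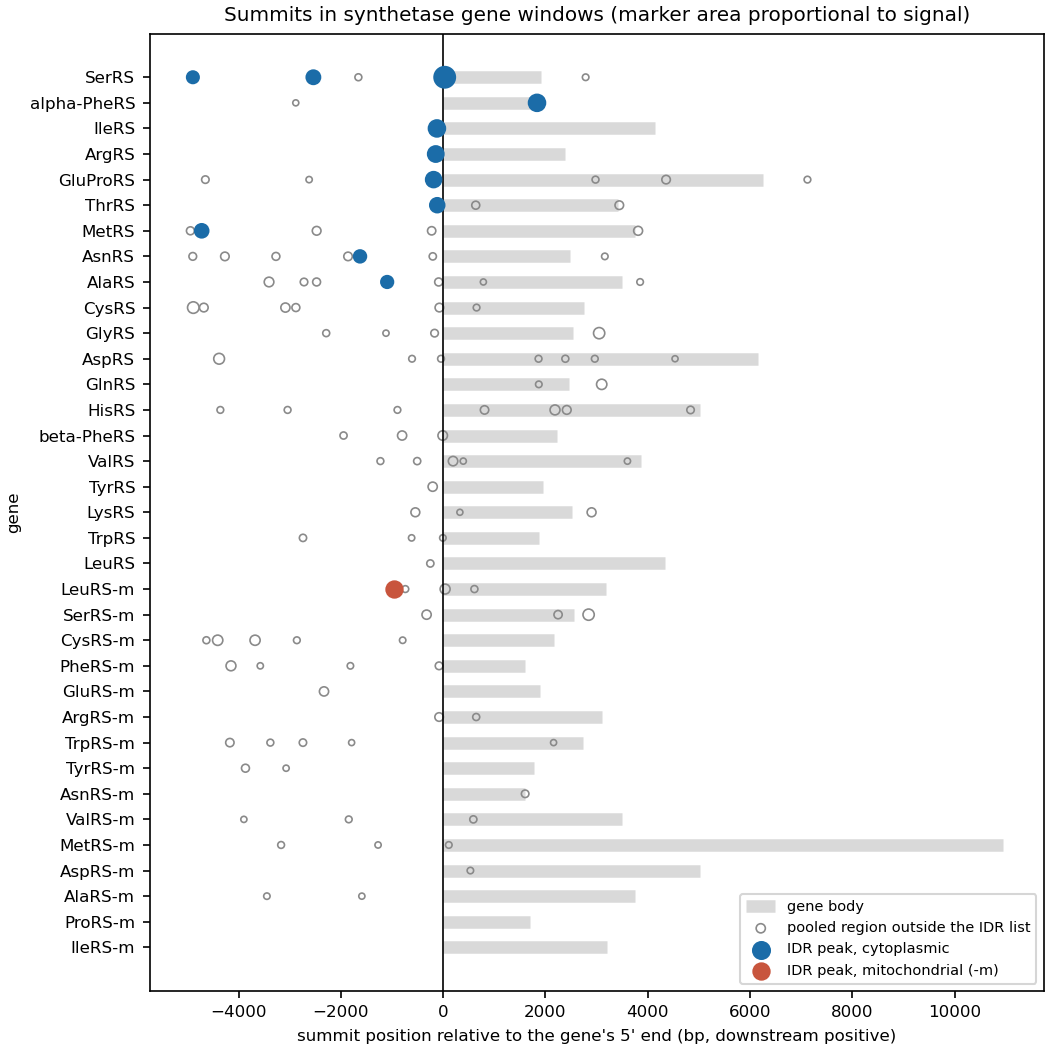
Position of every pooled summit in the 35 gene windows relative to the 5′ end of the gene in bp, with gene bodies as grey bars, IDR peaks filled and weaker pooled regions open; marker area is proportional to signal. Filled markers lie near 0 for SerRS, IleRS, ArgRS, GluProRS and ThrRS, and the single filled mitochondrial marker lies 955 bp upstream of LeuRS-m.

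The 25 members without an IDR summit included several just below the lowest IDR signal of 65.1. The next highest was CysRS with 61.1, at rank 2472 of the pooled list, followed by SerRS-m with 58.1, GlyRS with 58.0, AspRS with 53.5 and GlnRS with 48.9. The CysRS region measured 21.0 in replicate 1 (rank 4145) and 46.2 in replicate 3 (rank 1713). The SerRS-m region measured 19.3 and 37.8 in replicates 1 and 3, and the GlyRS region 16.3 and 33.5. The AspRS region measured 19.6 and 31.5, and the GlnRS region 12.9 and 37.0. None of these 5 regions lay at the promoter of the synthetase. Their nearest start sites were those of Got1 for CysRS, Nagk for SerRS-m, Ctps for GlyRS, asRNA:CR43469 for AspRS and CG11858 for GlnRS, at 57 to 255 bp. CysRS, SerRS-m, GlyRS and AspRS had the maximal −log10 q-value of 3.82, which 3340 pooled regions shared with the IDR peaks.

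Pooled regions of any signal at the promoter were common among the cytoplasmic members. Any pooled region, however weak, lay within 500 bp of an own TSS in 17 of 20 cytoplasmic members, 7 of 15 mitochondrial members and 51.2% of protein-coding genes. The cytoplasmic count includes the 5 members with an IDR summit there. beta-PheRS, whose product pairs with that of alpha-PheRS, had a region of signal 41.5 with its summit 9 bp upstream of its TSS. The highest region of ValRS had a signal of 40.8 with its summit 103 bp downstream of the nearer of its annotated TSSs, in a coding exon. TyrRS had 39.0, in a region 205 bp upstream and 90 bp from CG33158, and LeuRS had 23.8, in a region 251 bp upstream and 35 bp from CG17593. HisRS reached 45.4 in a coding exon 2187 bp into the gene, LysRS 36.6 near Lst8 beyond its 3′ end, and TrpRS 24.2 at 2741 bp upstream. LysRS and TrpRS also had weaker regions within 500 bp of an own TSS, of 16.7 and 19.3, and HisRS had none there.

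Among mitochondrial members with a pooled region but no IDR summit, the highest signals ran from 18.9 to the 58.1 of SerRS-m, which overlapped those of the cytoplasmic members without one, from 23.8 to 61.1. CysRS-m had 48.7 in a region 4409 bp upstream, PheRS-m had 44.9 in a region 4149 bp upstream, and GluRS-m had 39.0 in the region it shared with TyrRS. ArgRS-m had 33.7 with its summit 79 bp upstream of its own TSS, but this region stood at 23.3 in replicate 1 (rank 3317) and 13.8 in replicate 3 (rank 22987). TrpRS-m had 32.2, TyrRS-m 28.9, AsnRS-m 26.1, ValRS-m 23.6, MetRS-m 21.2, AspRS-m 19.3 and AlaRS-m 18.9. IleRS-m and ProRS-m had no region in the pooled list, although IleRS-m had 1 of signal 8.42 in replicate 1 and ProRS-m 1 of 14.1 in replicate 3. A pooled region was present in the windows of 20 of 20 cytoplasmic members, 13 of 15 mitochondrial members and 80.2% of protein-coding genes. The pooled list is itself limited to 30000 regions, so a gene without a region is not shown to have a signal of 0.

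**Figure D4:**
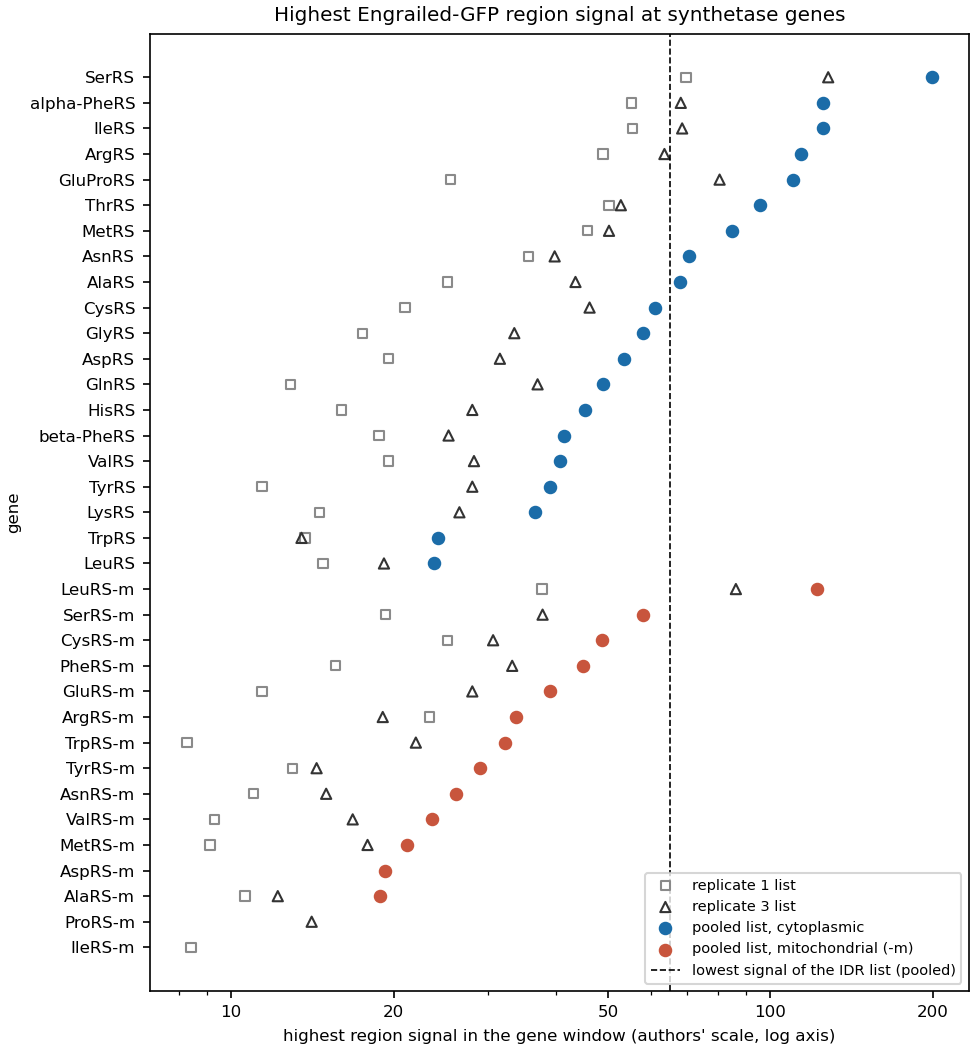
Highest region signal in the window of each synthetase gene on a log axis in the authors' scale, from the pooled list (filled; blue cytoplasmic, red mitochondrial) and the replicate lists (open squares and triangles); the dashed line is the lowest pooled signal of the IDR list, 65.1. The 9 cytoplasmic genes from SerRS to AlaRS and LeuRS-m lie to the right of the line, and the lists differ in scale.

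The levels of the compartments overlapped but were shifted. The highest pooled signal in the window ranged from 23.8 to 199 with a median of 59.5 over the 20 cytoplasmic members. It ranged from 18.9 to 122 over the 13 mitochondrial members with a region, and the median over all 15, with those lacking a region counted as lowest, was 28.9. The same median was 34.1 over all protein-coding genes and 36.7 over those in the members' range of window length. In replicate 1 the medians over members with a region were 20.3 for cytoplasmic (n = 20) and 11.4 for mitochondrial members (n = 13), and in replicate 3 they were 38.4 (n = 20) and 19.1 (n = 13). The order was thus the same in each replicate. Pooled regions were present at 4.26 per 10 kb of window for cytoplasmic members, 2.60 for mitochondrial members and 2.96 for all protein-coding genes.

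Setting each mitochondrial gene beside the cytoplasmic gene for the same amino acid gave 15 pairs, with GluProRS used for both glutamate and proline and alpha-PheRS and beta-PheRS counted as 1 enzyme. In 9 pairs the cytoplasmic gene alone had an IDR summit, in 1 pair, leucine, the mitochondrial gene alone, and in 5 neither. For alanine, asparagine, methionine and phenylalanine the cytoplasmic summit lay at the start of another gene. The glutamate and proline pairs shared the GluProRS peak, so the pairs are not independent. The highest pooled signal was on the cytoplasmic side in 13 pairs and on the mitochondrial side in 2, those of leucine (122 against 23.8) and tryptophan (32.2 against 24.2). For phenylalanine the cytoplasmic value was that of alpha-PheRS, while beta-PheRS, at 41.5, was below PheRS-m, at 44.9. The highest signals in the windows were 199 for SerRS and 58.1 for SerRS-m, and 114 for ArgRS and 33.7 for ArgRS-m. They were 84.7 for MetRS and 21.2 for MetRS-m. The regions of SerRS-m, MetRS and MetRS-m lay nearest to the start sites of other genes, Nagk, Jheh1 and CG14841. The mitochondrial genes of isoleucine and proline had no pooled region. For 5 cytoplasmic members, GlnRS, GlyRS, HisRS, LysRS and ThrRS, the annotation names no -m gene of the same amino acid, and of these ThrRS alone had an IDR summit.

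The cytoplasmic members were also counted by textbook groups, which were chosen after the values were seen, beside the 23.1% of all protein-coding genes. Of the 8 enzymes that form the multi-synthetase complex in mammals, 4 had an IDR summit (GluProRS, IleRS, MetRS and ArgRS) and AspRS, GlnRS, LeuRS and LysRS had none. Of the other 12 cytoplasmic members, 5 had one. By the fold of the catalytic domain, 5 of 10 class II genes and 3 of 9 class I genes had one, with GluProRS, which joins both classes, left out. Within 500 bp of an own TSS the counts were smaller, beside 9.68% of protein-coding genes. They were 3 of 8 for the enzymes of the complex and 2 of 12 for the others. By class they were 2 of 10 for class II and 2 of 9 for class I. No difference between these groups was tested.

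More cytoplasmic than mitochondrial members had a summit under each other list and rule tried. With the 2226 strongest regions of replicate 1 alone, 7 cytoplasmic and 1 mitochondrial member had a summit, beside 22.8% of protein-coding genes, and GluProRS and AlaRS dropped out. With those of replicate 3 alone the counts were 9 and 1, beside 22.9%, with CysRS entering and AsnRS dropping out. The 1113 strongest IDR peaks gave 5 and 1, beside 13.0%, and the 4452 strongest pooled regions gave 14 and 4, beside 37.1%. When the window was cut to 1000 bp before the start and to the gene's own end, 5 cytoplasmic and 1 mitochondrial member remained, beside 14.3%, and with any base of a peak in the full window the counts were 9 and 1, beside 23.8%. Of the 12 peaks, 4 ranked outside the 2226 strongest regions of replicate 1 and 1 outside those of replicate 3. The same counts over all IDR peaks are not given here, so these have no background.

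Other genes of tRNA charging and elongation had peaks in part. Of 20 such genes listed, 18 were matched by name and 5 of these had an IDR summit in the window (27.8%), beside the 23.1% of all protein-coding genes. Of 6 cytosolic elongation factor genes, 3 had an IDR summit in the window, and in each of these a summit lay at an own promoter. eEF1gamma had a signal of 232, with 127 in replicate 1 and 108 in replicate 3, and its summit 37 bp upstream. eEF1alpha1, which delivers charged tRNA to the ribosome, had 3 IDR summits in its window. The highest had a signal of 124, with 57.4 and 56.4 in replicates 1 and 3. It lay inside the annotated gene, 79 bp upstream of the nearest of its annotated TSSs. eEF2, the translocase, had a signal of 109, with 55.4 and 58.1, and its summit 1 bp from the nearest of its annotated TSSs. Among the related peaks given here, replicate 1 was the higher at eEF1gamma, eEF1alpha1 and Gcn2, and replicate 3 at eEF2 and GatC. Replicate 3 was the higher at all 12 peaks of the synthetase windows. It was also the higher at IDR peaks in general, with a median log2 ratio of 0.6 over all of them. Of the 4 matched mitochondrial elongation factor genes, none had an IDR summit, although mEFTu1 reached 64.3, just under the lowest IDR signal. The scaffold genes AIMP1, AIMP2 and AIMP3 of the multi-synthetase complex had none, with signals of 36.2, 27.8 and 20.1. GatC, a subunit of the mitochondrial amidotransferase, had a peak of 636 in its window (229 and 414 in replicates 1 and 3), 106 bp from the start of CenG1A. Gcn2, the kinase that senses uncharged tRNA, had one of 69.7 (44.9 and 24.7), at -266 bp from its own TSS and 90 bp from Ugt35D1. Slimp, GatB and crc, the ATF4 gene, had none.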

How the data were processed

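ChIP-seq regions were taken from the deposited lists in build dm6. Per the deposited text descriptions, the authors made 1 list of peaks and background per replicate and 1 for the pool, from alignments and a control file, and derived the optimal IDR peaks from these lists. Each deposited region carries a signal value and a −log10 q-value. Not given in the sources used here: the aligner, peak caller, read depth and IDR cutoff. The lists in build dm3 were not used here, and no coordinates were converted.

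Gene models were those of Ensembl release 115 (BDGP6), without transposable elements, on the 6 main arms. The symbol pattern matched 33 members as spelled in the rule and 2 with a hyphen, alpha-PheRS and beta-PheRS. Summits were the region start plus the summit offset, written 1-based. A replicate value is the strongest region of that replicate's list overlapping the pooled region by at least 1 bp. Signals were compared as ranks, medians and log2 ratios. All members are named, and values are given in full for those with an IDR summit and for the 5 highest without one. The related gene list holds 20 symbols, of which gatA and mEFG2 were not matched as spelled. The members and lists were chosen with earlier results of these data known. The labels call the replicates biological, without saying whether they were separate embryo collections. Scripts used Python 3.11.15, pandas 2.3.3 and scipy 1.17.1, and the window, promoter, nearest-TSS and motif code was tested on simulated data.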

Additional observations from a re-analysis of the deposited data

How the results depend on the processing

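The order of the compartments, with more cytoplasmic than mitochondrial members holding a summit, was the same under the 8 alternatives tried. The sizes of the counts were not. All members with a summit, 10 in the main count, were 6 with the gene body and 1000 bp upstream, 5 within 500 bp of an own TSS, 4 by nearest TSS, 6 with the 1113 strongest IDR peaks and 18 with the 4452 strongest pooled regions. The cytoplasmic count of 9 became 5, 5, 4, 5 and 14 in the same order. The mitochondrial count of 1 became 0 within 500 bp of an own TSS and by nearest TSS, and 4 with the 4452 strongest regions. The share of protein-coding genes, 23.1%, became 14.3%, 9.68%, 12.3%, 13.0% and 37.1% in the same order, so the number of peaks and the reach of the window set these values by construction. The median over members with a region of the highest pooled signal, 45.4, was 31.6 with the gene body and 1000 bp upstream, and 18.8 and 30.6 in the lists of replicates 1 and 3 alone, whose scales differ. Of 15 members with values in full, 6 kept the same highest region signal within the narrower window, 8 moved to a weaker region and alpha-PheRS had none left. With 15 mitochondrial members, 1 gene more or less changes the share by 6.67 percentage points, and read depth is unknown.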
